A study of Mus musculus with 6 samples.

Results

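A set of 6 genes that act as brakes on JAK-STAT signalling was followed in mouse liver after injection of a lentiviral vector. They were chosen by name, as 3 members of the SOCS family (Socs2, Socs3 and Cish), the SUMO ligase Pias1 and the tyrosine phosphatase genes Ptpn6 and Ptpn11, and all 6 were found in the deposited table, whose 8390 genes include 8386 that could be tested. The LV group comprised 3 liver libraries from C57BL/6 mice given 3e8 transducing units (TU) of a lentiviral vector into a vein, with the liver taken 4 h later, and the untreated group 3 liver libraries from C57BL/6 mice labelled as having no treatment. Both groups were profiled by RNA sequencing of whole liver, to ask how the organ responds innately to the vector. None of the 6 samples is from a mock-injected mouse, so the vector cannot be told apart from the injection itself. The labels give neither sex nor age, nor the vector's promoter or cargo, and nothing beyond the sample titles describes the replicates: the p-values speak for the scatter among these 6 samples, which could be technical.

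Cytokine receptors lack an enzyme of their own and signal through bound Janus kinases (JAKs), which phosphorylate STAT transcription factors that then enter the nucleus. SOCS proteins are the classical negative feedback of this route: STATs switch on their genes, and the proteins bind the receptor or the kinase and recruit a ubiquitin ligase through their SOCS box. PIAS proteins attach SUMO and restrain STATs in the nucleus, and the phosphatases SHP-1 (Ptpn6) and SHP-2 (Ptpn11) act at receptors and kinases, although SHP-2 is also needed for growth factor signalling. In liver, Socs3 is best known as the brake on interleukin-6 and STAT3, and Socs2 and Cish as brakes on growth hormone and STAT5.

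The deposited values are whole numbers that summed to between 497295 and 526009 per library. They look like rounded values already divided by both sequencing depth and gene length, so read depth is unknown and no counting interval can be given. Values below are in this deposited unit, as mean ± SD (n = 3), and a fold change is the difference of mean log2(value + 1), LV minus untreated, with its standard error (SE), from limma, with p-values adjusted by Benjamini and Hochberg over all 8386 tested genes and called at an adjusted p under 0.05. All 8 listed hepatocyte markers were in the table, and 0 of them were called in limma (2 had an unadjusted p under 0.05). LV replicate 3 and untreated replicate 2 stood apart from the other 4 libraries: the male-biased liver gene Elovl3 was 169 and 159 there and at most 4 elsewhere, and the female-biased Cyp2b9 was 8 and 5 there and at least 121 elsewhere. Not every gene of these lists set them apart: the female-biased Cyp3a44 was 100 and 160 there and 85 to 114 elsewhere. In untreated replicate 3 all 4 listed Y-linked genes were at 0. The other libraries, also those with low Elovl3, had Y-linked values above 0. Ddx3y was 12, 12 and 13 in LV replicates 1, 2 and 3, and 10 and 14 in untreated replicates 1 and 2. Growth hormone acts differently in the livers of male and female mice. LV replicate 3 and untreated replicate 2 are therefore named beside the results for Socs2 and Cish, and their part in those results was not tested. Untreated replicate 3 is named beside the results for Socs3 and Cish, and its part was not tested either.

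Socs3 and Cish carry a STAT-type motif near their start, and these promoters are shown for that reason. The motif searched was TTCNNNGAA, the palindrome that STAT dimers recognise, which reads the same on both strands. RefSeq windows of 300 bases (250 before to 50 after each annotated start, build GRCm38.p6) were matched by symbol for 5 of the 6 genes: Socs3, Cish, Pias1, Ptpn6 and Ptpn11. The Socs3 stretch lies on the minus strand at chr11:117969367-117969616 and the Cish stretch on the plus strand at chr9:107296409-107296678, each read 5′ to 3′ with the motif in capitals. The Socs3 stretch ends at the annotated start, and the Cish stretch runs on to the end of its last motif.
Socs3: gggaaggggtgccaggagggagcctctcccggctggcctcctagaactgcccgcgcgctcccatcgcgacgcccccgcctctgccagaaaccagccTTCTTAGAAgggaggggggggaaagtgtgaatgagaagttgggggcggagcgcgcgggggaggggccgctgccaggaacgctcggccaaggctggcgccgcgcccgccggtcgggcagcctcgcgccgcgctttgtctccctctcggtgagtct
Cish: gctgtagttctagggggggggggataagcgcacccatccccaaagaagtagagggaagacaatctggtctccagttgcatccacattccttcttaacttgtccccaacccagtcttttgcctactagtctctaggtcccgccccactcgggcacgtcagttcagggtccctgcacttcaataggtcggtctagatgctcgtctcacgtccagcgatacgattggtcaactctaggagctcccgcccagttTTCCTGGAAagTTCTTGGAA
Socs3 held 1 copy, beginning 154 bases before the start. Cish held 2 copies side by side, beginning at the annotated start and 11 bases after it. The windows of Pias1, Ptpn6 and Ptpn11 held 0 copies. Of all 32851 windows in the RefSeq table, 2726 (8.30%) held the motif and 150 (0.457%) held it at least 2 times. A match describes the letters in these windows and is not evidence of STAT binding.

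Socs3 was higher in every LV liver than in any untreated liver, but its change did not pass the adjusted test. Socs3 protein binds the shared receptor gp130 and its JAK, and shuts down interleukin-6 signalling. Its values were 12, 20 and 13 in LV replicates 1, 2 and 3 and 3, 4 and 8 in untreated replicates 1, 2 and 3. The lowest LV value was 12 and the highest untreated value 8, so the groups did not overlap, with LV replicate 2 the highest library and untreated replicate 3 the nearest untreated one. The mean went from 5 ± 2.65 to 15 ± 4.36, a ratio of means of 3, and rounding alone could place that ratio anywhere between 2.64 and 3.44. The log2 fold change was 1.47 ± 0.36 SE, with a 95% interval of 0.58 to 2.36, an unadjusted p of 0.0076 and a limma adjusted p of 0.0965. With single libraries left out, the fold change ran from 1.22 to 1.81 and the limma adjusted p from 0.0668 to 0.262. The values 1.81 and 0.0668 both came without untreated replicate 3, where the Y-linked genes were at 0. Scaling the libraries by the median of ratios gave 1.51 and a limma adjusted p of 0.0478, which is a call.

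In limma 0 of the 6 genes were called, against a background of 4.63% of all tested genes called in either direction (3.76% higher, 0.870% lower). At an unadjusted p under 0.05 there was 1 of the 6, Socs3, where 19.5% of all tested genes passed (9.21% higher, 10.3% lower). Socs3 was also the 1 gene of the 6 whose groups did not overlap, and 19.7% of all tested genes had groups that did not overlap (8.65% with LV above). A count of 1 among 6 genes is too small to be read against these shares. The shares also stand beside the list counts in the other paragraphs, which were not tested as sets. The median log2 fold change was 0.08 over the 6 genes and -0.07 over all tested genes.

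**Figure D1:**
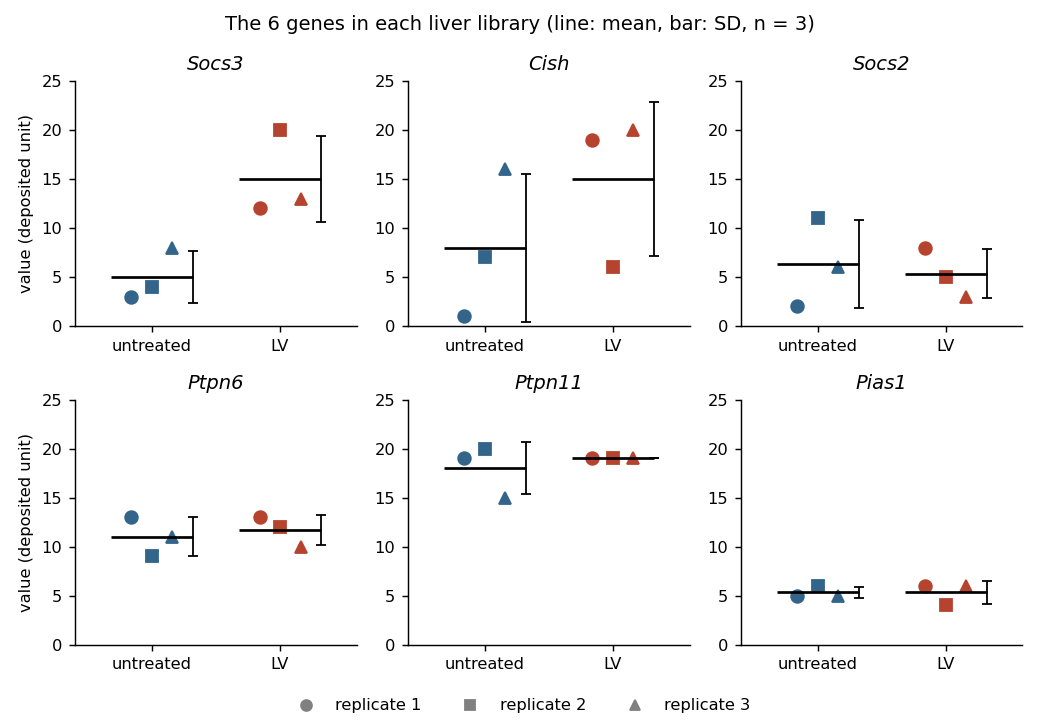
Value of each of the 6 genes in the deposited unit (vertical axis) in untreated and LV livers, with 1 symbol per replicate, a line at the group mean and a bar of 1 SD (n = 3). Socs3 is the gene whose 3 LV values (12 to 20) all lie above its untreated ones (3 to 8). Cish and Socs2 scatter widely inside both groups, and Ptpn6, Ptpn11 and Pias1 stay within narrow ranges.

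Cish differed more between livers of the same group than between the groups. Its product, CIS, was the first SOCS protein described and competes with STAT5 for docking sites on receptors. Cish had values of 19, 6 and 20 in LV replicates 1, 2 and 3 and of 1, 7 and 16 in untreated replicates 1, 2 and 3. LV replicate 2 lay below 2 of the 3 untreated livers, so the groups overlapped. The means were 15 ± 7.81 and 8 ± 7.55, and the log2 fold change was 1.14 ± 0.89 SE (95% interval -1.09 to 3.38, limma adjusted p = 0.533). The fold change fell to 0.30 without untreated replicate 1, the library at 1 (limma adjusted p = 0.861). It rose to 1.84 without untreated replicate 3, where the Y-linked genes were at 0 (limma adjusted p = 0.377). The 2 libraries with high male-biased genes gave 20 (LV replicate 3) and 7 (untreated replicate 2), which are not alike. With both of them left out, the log2 fold change of Cish was 1.02 (limma adjusted p = 0.711).

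Socs2, which limits growth hormone signalling and whose loss gives oversized mice, was not separated by treatment. It had values of 8, 5 and 3 in LV replicates 1, 2 and 3 and of 2, 11 and 6 in untreated replicates 1, 2 and 3. The highest and the lowest liver were both untreated, and the LV values lay between them. The means were 5.33 ± 2.52 and 6.33 ± 4.51, with a log2 fold change of -0.07 ± 0.58 SE (95% interval -1.52 to 1.38, limma adjusted p = 0.985), an interval that leaves room for a change of more than 1 log2 unit either way. The libraries with high male-biased genes gave 3 in LV replicate 3, the lowest LV value, and 11 in untreated replicate 2, the highest value of all. Without these 2 libraries the log2 fold change of Socs2 was 0.68 (limma adjusted p = 0.539), and without untreated replicate 1 it was -0.61 (0.529). The direction for Socs2 therefore changed with the libraries used.

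Untreated replicate 1 had the lowest value of the 6 livers for each of the 3 SOCS-family genes, with 3 for Socs3, 2 for Socs2 and 1 for Cish. The order of the untreated livers was the same for Socs3 and Cish (replicate 1, then 2, then 3) and different for Socs2, which was highest in replicate 2. Among LV livers the orders of Socs3 and Cish were opposite at replicate 2, which had the highest Socs3 value (20) and the lowest Cish value (6).

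The phosphatase genes were steady. Ptpn6 encodes SHP-1, found mainly in blood-derived cells, where it answers to inhibitory receptors. Ptpn6 had values of 13, 12 and 10 in the LV livers, with 13, 9 and 11 in the untreated livers, and the groups overlapped. Its log2 fold change was 0.08 ± 0.16 SE, with a 95% interval of -0.33 to 0.49 (limma adjusted p = 0.811). In whole liver, fewer cells of a type and less RNA per cell cannot be told apart. Of 10 general leukocyte markers 6 were in the table and 0 were called in limma, nor had any an unadjusted p under 0.05, and their summed value was 55 to 88 in LV and 64 to 71 in untreated livers. Of 12 Kupffer cell and macrophage markers 11 were in the table (1 by an older symbol), and their summed value was 221 to 416 in LV and 298 to 432 in untreated livers. None of these Kupffer cell markers was called in limma, and 2 had an unadjusted p under 0.05, in opposite directions. The fold change was above 0 for 3 of the 11 and below 0 for 8, with a median of -0.52. Vsig4, a complement receptor of Kupffer cells, was 5, 10 and 7 in the LV livers, with 17, 15 and 18 in the untreated livers (limma adjusted p = 0.0693). Lyz2, the lysozyme of myeloid cells, was 86, 101 and 66 in the LV livers, against 64, 50 and 51 in the untreated livers (limma adjusted p = 0.174). The part of these cell markers in the Ptpn6 values was not tested. Of the 11 neutrophil and monocyte, 11 T and NK cell and 5 B cell markers, 0 were in the table.

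Ptpn11 encodes SHP-2, a phosphatase present in most cell types. It had the value 19 in each of the 3 LV libraries and 19, 20 and 15 in untreated replicates 1, 2 and 3. The LV values sat inside the untreated range. Ptpn11 had a log2 fold change of 0.08 ± 0.12 SE (95% interval -0.22 to 0.39, limma adjusted p = 0.736), and without untreated replicate 3 it was -0.04. The equal LV values are rounded numbers, so their SD of 0 does not mean that the livers were identical.

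Pias1, a SUMO ligase that restrains STATs in the nucleus, was also steady. It had values of 6, 4 and 6 in the LV livers, with 5, 6 and 5 in the untreated livers. Both groups had a mean of 5.33 (SD 1.16 in LV and 0.577 in untreated livers). At this level 1 unit of rounding is a large step: rounding alone could place the ratio of means between 0.829 and 1.21. The log2 fold change of Pias1 was -0.01 ± 0.16 SE (95% interval -0.43 to 0.40), and its limma adjusted p rounded to 1.

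Set side by side on the deposited scale, which appears to be per transcript length, the order of the 6 genes differed between the groups. In untreated livers Ptpn11 was highest (18 ± 2.65), followed by Ptpn6 (11 ± 2), Cish (8), Socs2 (6.33), Pias1 (5.33) and Socs3 (5). Ptpn11 was separate from Ptpn6 there, and each further neighbour in that order overlapped with the next. In LV livers Ptpn11 (19) was followed by Socs3 and Cish, both at a mean of 15, then Ptpn6 (11.7), and by Socs2 and Pias1, both at 5.33. Only Ptpn6 and Socs2 were separate neighbours in that order. Socs3 thus had the lowest mean of the 6 in untreated livers and shared the second place with Cish in LV livers.

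The genes also differed in how far livers of one group lay apart. The SD of log2(value + 1) within groups, pooled over both, was 1.28 for Cish, 0.82 for Socs2 and 0.50 for Socs3, against 0.22 for Pias1, 0.21 for Ptpn6 and 0.15 for Ptpn11. Over the 6292 genes with a mean value of 2 to 30 the median was 0.21. Cish lay above 99.6% of those genes, Socs2 above 98.5% and Socs3 above 94.7%, whereas Pias1 and Ptpn6 lay above 54.1% and 51.8% and Ptpn11 above 24.3%. In these libraries the SOCS-family genes were thus among the most variable of the genes with means of 2 to 30, and the phosphatases and Pias1 were not. Each SD rests on 3 libraries per group. The libraries also differed in sex-biased and Y-linked genes, and the part of that in the spread was not tested. The spread was present without treatment: within the untreated group alone the SD was 1.57 for Cish, 1.01 for Socs2 and 0.60 for Socs3.

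**Figure D2:**
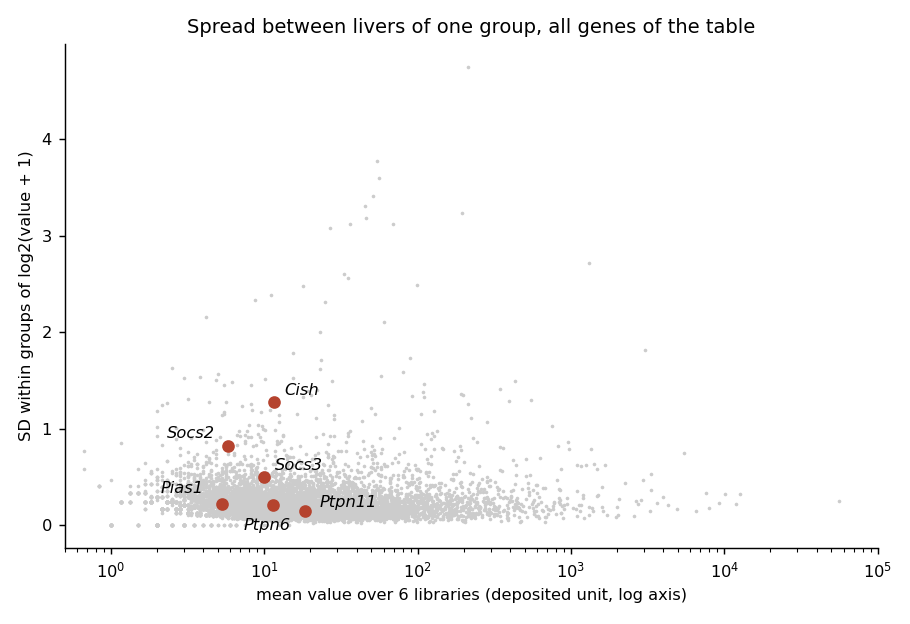
SD within groups of log2(value + 1) (vertical axis) against the mean value over 6 libraries in the deposited unit (horizontal log axis); each grey point is 1 gene of the table, and the 6 genes are marked. Cish (1.28) and Socs2 (0.82) lie well above most genes of their level, and Pias1, Ptpn6 and Ptpn11 lie within the bulk.

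Of 15 other brakes on the list, 12 were in the table, 1 was called higher and 11 did not pass. The called gene was Usp18, which displaces JAK1 from the type I interferon receptor and removes Isg15 from proteins. It stood at 321, 294 and 199 in the LV livers, against 14, 17 and 11 in the untreated livers (log2 fold change 4.17 ± 0.24 SE, limma adjusted p = 0.00144). The median log2 fold change of these 12 genes was 0.20, and 5 had an unadjusted limma p under 0.05, where 19.5% of all tested genes did. Ptpn1, the phosphatase PTP1B, which acts on JAK2 and the insulin receptor, had 22, 20 and 11 in the LV livers, with 9 in each untreated liver. Its limma adjusted p was 0.161, and 0.00832 without LV replicate 3, which made it the second called gene of this list. Sh2b3, the adaptor LNK that restrains JAK2, lay the other way without overlap, at 8, 11 and 9 in the LV livers against 15, 13 and 13 in the untreated livers (limma adjusted p = 0.118). Pias3, the PIAS member named for STAT3, had 3, 4 and 6 in the LV livers, with 7, 6 and 8 in the untreated livers (limma adjusted p = 0.227). Socs1, the main SOCS brake on interferon signalling, was not in the table.

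**Figure D3:**
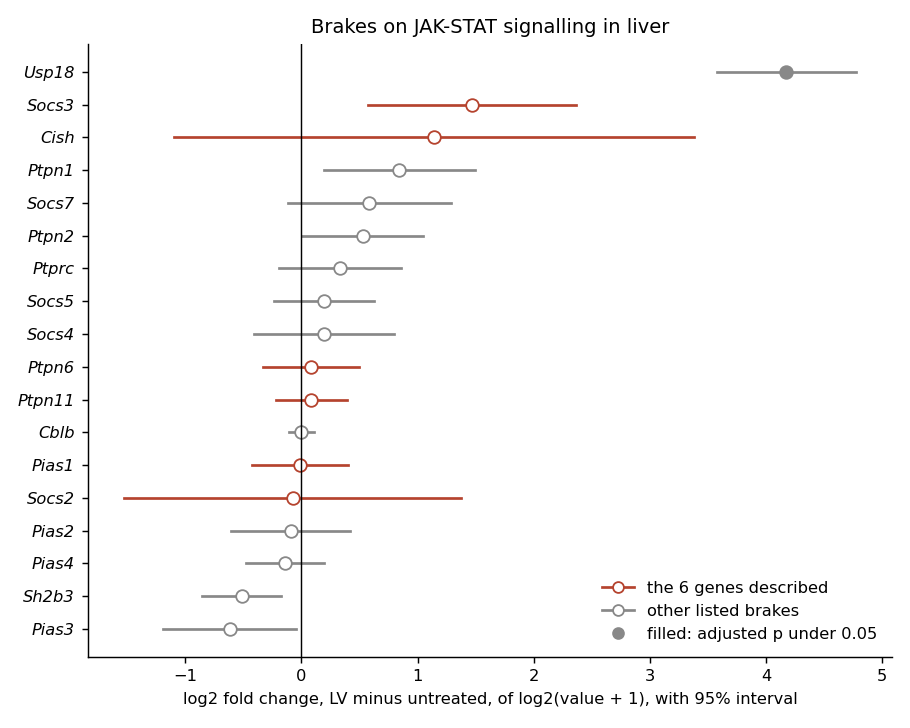
Log2 fold change of log2(value + 1), LV minus untreated, with its 95% interval (horizontal axis) for the 6 genes described and 12 other listed brakes, ordered by fold change; filled symbols have a limma adjusted p under 0.05. Usp18 (4.17) is the filled one, Socs3 (1.47) has an interval above 0, and the intervals of the other 5 genes described include 0.

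The kinases and STATs that these proteins act on rose in part. Of 9 listed and measured JAK and STAT genes 3 were higher, 0 were lower and 6 did not pass (median log2 fold change 0.50). Stat2, which serves type I interferon signalling, went from 19.7 ± 1.53 to 58.3 ± 3.06. Stat3, the factor that Socs3 restrains, had 110, 87 and 70 in the LV livers, with 33, 30 and 25 in the untreated livers (log2 fold change 1.55 ± 0.20 SE, limma adjusted p = 0.0142). The call of Stat3 was lost without LV replicate 2 or without any 1 untreated library, with limma adjusted p values of up to 0.0897. Jak2, which serves the growth hormone receptor, had 8, 7 and 8 in the LV livers, with 4, 5 and 4 in the untreated livers (limma adjusted p = 0.0297), a call that held with 1 of the 6 libraries left out, untreated replicate 2, and reached 0.114 otherwise. The list gave 1 call without LV replicate 2, untreated replicate 1 or untreated replicate 3, and 5 calls under median-of-ratios scaling. Stat5b, the main STAT of growth hormone in liver, was 20, 23 and 25 in the LV livers, with 29, 19 and 20 in the untreated livers (log2 fold change 0.02, limma adjusted p = 0.996).

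Among receptors and ligands, few genes passed. Of 18 measured cytokine receptor genes 3 were higher, 0 were lower and 15 did not pass (median log2 fold change 0.02). Osmr, the oncostatin M receptor that pairs with gp130, had 5, 4 and 3 in the LV livers, with 1 in each untreated liver (limma adjusted p = 0.0106). Its untreated values are limited by rounding, so their equality does not mean that the livers were identical. Il22ra1, of the interleukin-22 receptor, had 8, 9 and 8 against 4, 3 and 3 (limma adjusted p = 0.00867), and Il13ra1 had 22, 18 and 15 against 8, 9 and 10 (0.0393). The 3 calls fell to 0 without LV replicate 2 and to 1 without untreated replicate 1 or untreated replicate 2. They fell to 1 with LV replicate 3 and untreated replicate 2 both left out, and to 0 with replicate number added to the model. With single libraries left out, Il22ra1 passed in 5 of 6 fits, Osmr in 2 and Il13ra1 in 1. Il6st, which encodes gp130, the receptor subunit that Socs3 binds, had 51, 64 and 58 in the LV livers, with 31, 49 and 25 in the untreated livers (limma adjusted p = 0.196), and was named for that tie after its values were seen. Of 23 listed ligands 1 was in the table, thrombopoietin (Thpo), at 17, 14 and 12 in the LV livers against 10, 8 and 10 in the untreated livers (limma adjusted p = 0.134). Interleukin-6, oncostatin M and leptin were not in the table either, so the ligands upstream of Socs3 were not analysed here.

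Genes listed as liver targets of STAT3 rose in large part. Of the 6 brakes described 0 were called in limma, but the log2 fold change of Socs3 (1.47) lay near the median of this list (1.62). The difference in calls is therefore not a difference in response for Socs3. The part of STAT3 in the rises of the listed genes and of Socs3 was not tested. Of 19 tested liver targets of STAT3, 12 were higher, 0 were lower and 7 did not pass (median log2 fold change 1.62). These 12 calls fell to 5 without LV replicate 1 or untreated replicate 2, to 3 without untreated replicate 1, to 2 without LV replicate 2 or untreated replicate 3, and to 6 with LV replicate 3 and untreated replicate 2 both left out. Haptoglobin (Hp), which binds free haemoglobin, went from 2104 ± 259 to 6463 ± 1092. Saa1, an acute-phase apolipoprotein whose close paralog Saa2 can share its reads, had 3839, 3274 and 1264 in the LV livers, with 42, 46 and 33 in the untreated livers. The LV liver with the highest Socs3 value, replicate 2, was not the one with the highest Saa1 or Hp value, which was replicate 1. The median of the STAT3 list, relative to the untreated mean, was 1.78, 1.63 and 1.34 log2 units in LV replicates 1, 2 and 3.

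**Figure D4:**
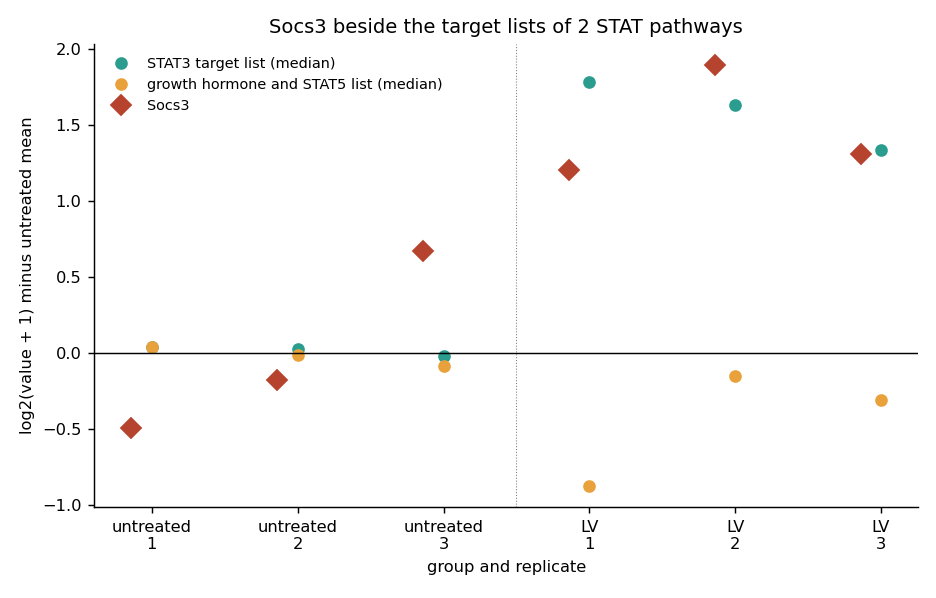
Log2(value + 1) minus the untreated mean (vertical axis) for Socs3 and for the median of 2 lists of STAT target genes in each of the 6 libraries (horizontal axis; Socs3 symbols are shifted slightly to the left). In LV livers the STAT3 median lies at 1.34 to 1.78. Socs3 lies below the STAT3 median in LV replicates 1 and 3 and above it in LV replicate 2. The growth hormone and STAT5 median is below 0 in LV livers, for a list that includes Bcl6, a gene lowered by growth hormone.

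Growth hormone and STAT5 targets gave 0 calls in limma. Of 7 measured genes 3 had an unadjusted limma p under 0.05, where 19.5% of all tested genes did. The median log2 fold change was -0.39. The list mixes genes that growth hormone raises with Bcl6 (log2 fold change -1.13), which it lowers. The median is therefore not a measure of growth hormone signalling. Igfals, the acid-labile subunit that carries Igf1 in blood, had 57, 58 and 69 in the LV livers, with 83, 80 and 79 in the untreated livers (limma adjusted p = 0.1002, and 0.0392 without LV replicate 3). Igf1, the growth factor that the liver makes under growth hormone, had 24, 30 and 36 in the LV livers, with 37, 43 and 57 in the untreated livers (limma adjusted p = 0.225). Both had LV values wholly below the untreated ones, as had 11.0% of all tested genes.

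Bcl6, a repressor that competes with STAT5 at liver genes and is lowered by growth hormone, ran opposite to Cish. Bcl6 had values of 7, 35 and 15 in LV replicates 1, 2 and 3 and of 56, 39 and 20 in untreated replicates 1, 2 and 3. The liver with the highest Bcl6 value (56) had the lowest Cish value (1), and the livers with Bcl6 at 35 and 39 had Cish at 6 and 7. The 3 livers with Bcl6 at 20 or less, of which 2 were LV and 1 untreated, had Cish at 16 to 20. No correlation is given, because the libraries fell into these 2 sets of 3. Neither set followed the treatment or the high male-biased genes. No other gene of the growth hormone and STAT5 list separated the livers into these sets. Bcl6 was set beside Cish after the values were seen, so their opposite order is not a test of a link. Bcl6 itself overlapped between groups (limma adjusted p = 0.392).

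**Figure D5:**
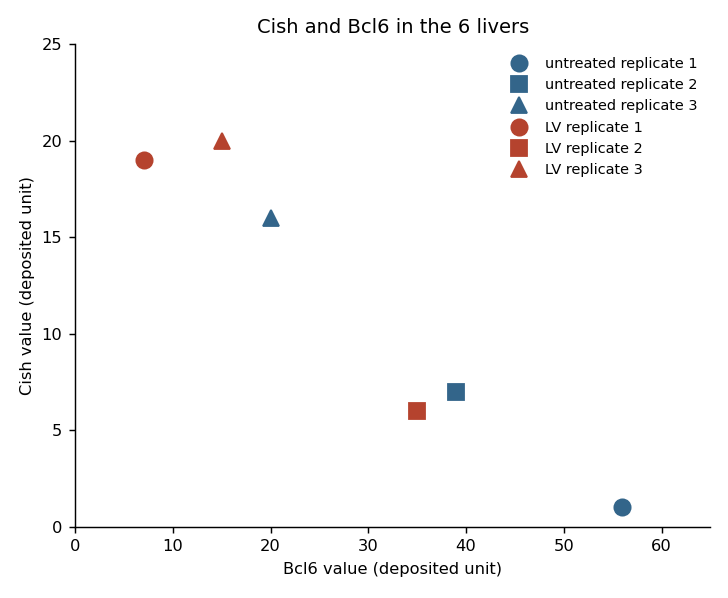
Cish value (vertical axis) against Bcl6 value (horizontal axis), both in the deposited unit, in the 6 livers, with colour for the group and symbol for the replicate. The 3 livers with Bcl6 of 7 to 20 have Cish of 16 to 20, and the 3 with Bcl6 of 35 to 56 have Cish of 1 to 7; each set holds livers of both groups.

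Genes for partner proteins of the 6 gave 0 calls in limma with all 6 libraries. Over all tested genes 4.63% were called, and 19.5% had an unadjusted limma p under 0.05. The counts of 1 gene per list below are too small to be read against these shares. Of 9 measured SHP docking genes 0 were called in limma and 1 had an unadjusted p under 0.05, Irs1, the insulin receptor substrate, at 1, 1 and 2 in the LV livers, with 3, 3 and 2 in the untreated livers (median of the list -0.21). Gab1, the scaffold through which SHP-2 serves growth factor receptors, had 2, 4 and 5 in the LV livers, with 5, 6 and 7 in the untreated livers (limma adjusted p = 0.291). Frs2, a docking protein of growth factor receptors, was called higher with LV replicate 3 and untreated replicate 2 both left out (limma adjusted p = 0.0342). Of 14 measured SUMO pathway genes 0 were called in limma and 1 had an unadjusted p under 0.05 (median 0.03), and without LV replicate 3 the SUMO protease gene Senp1 was called (limma adjusted p = 0.0157), as it was with untreated replicate 2 left out too (0.00559). Of 6 measured genes of the SOCS box ubiquitin ligase 0 were called in limma and 1 had an unadjusted p under 0.05, Rbx1, its RING subunit, at 10, 11 and 10 in the LV livers, with 13, 12 and 13 in the untreated livers (limma adjusted p = 0.159).

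The genes most like each SOCS-family gene were sought by the root mean square difference of log2(value + 1) over the 6 libraries, each gene centred on its own mean, among the 6780 other genes with a mean value of at least 5. For Socs3 these were Nampt, an enzyme of NAD synthesis (difference 0.34), Marcksl1 (0.36) and Lilrb4, an inhibitory receptor of myeloid cells (0.36), where the median gene stood at 0.90. Lilrb4 had 9, 13 and 8 in the LV livers and 3 in each untreated liver, and was called higher (limma adjusted p = 0.0129, up to 0.0756 when LV replicate 1 or any 1 untreated library was left out). Nampt had 54, 47 and 41 in the LV livers, with 13, 23 and 31 in the untreated livers, and shared with Socs3 the ranking of the untreated livers. For Cish the nearest genes were Hhex, a liver homeobox factor (0.48), Rpl29 (0.52) and Nampt (0.77), against a median of 1.23. Hhex had 62, 26 and 66 in the LV livers, with 14, 43 and 53 in the untreated livers, and its lowest liver in each group was the same as for Cish. Rpl29, a ribosomal protein gene whose close copies can share its reads, had 41, 18 and 25 in the LV livers, with 1, 17 and 37 in the untreated livers. For Socs2 they were Vamp2 (0.33), Dnajb9, a chaperone of the endoplasmic reticulum (0.36), and Ppan (0.38), against a median of 0.70. Dnajb9 had 19, 14 and 11 in the LV livers, with 6, 16 and 11 in the untreated livers. All these genes were picked by their match to a SOCS-family gene over both groups. Their shared directions and rankings follow from that choice, and the call of Lilrb4 is no separate support for a rise of Socs3.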

How the data were processed

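RNA was extracted from whole liver and sequenced from TruSeq libraries, per the labels' protocols. The submitters' processing notes name the genome build mm9. No aligner, annotation or counter is named in the labels or file header. The values deposited by the authors are treated as a score, a whole number per gene and library with no stated unit. A gene was tested if 3 or more libraries had a value of 1 or more (8386 genes). The model was limma 3.58.1 (run under R 4.3.3, mean-variance trend on, group as the 1 term) on log2(value + 1), with two-sided p-values. The scale was judged from the values: for low genes (means of 2 to 5) replicate variance was a median 0.125 of the mean in untreated livers, under the 1 of counted reads, and the first percentile of gene means fell from 6.17 in the shortest decile of transcripts to 1 in the longest (lengths were found for 87.7% of genes). Simulated data were built with each gene's own spread in these libraries. In the genes it called, the fit recovered the size and sign of the set changes. False calls made up a larger share of calls than the nominal threshold allows, so calls near the threshold should be read with caution. The simulation took each gene's SD from 3 libraries per group as its true SD, which exaggerates how much genes differ in spread. How far the excess of false calls carries over to the real libraries is therefore not known.

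The 6 genes and 21 lists were chosen with earlier results of these data known. List genes were matched by symbol (160), or by a synonym in a RefSeq table of GRCm38.p6 (3), and 84 were absent. Named genes were the 6, up to 4 genes of each pathway list with the smallest p, and the 3 nearest genes of each of the 6 whose log2 values spanned at least 1. Some named genes are left out for length, and marker genes appear beside the results they bear on. Stat5b, Il6st, Socs1 and the 3 ligands given as absent were named for their roles after the values were seen. The comparison of Bcl6 with Cish was also chosen after the values were seen. 1 gene of the kinase and STAT list and 1 target list are not reported here.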

Additional observations from a re-analysis of the deposited data

How the results depend on the processing

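Depth is unknown, so values near 1 to 5 are limited by rounding. Median-of-ratios scaling moved the median of all genes from -0.07 to -0.02, gave Socs3 a log2 fold change of 1.51 and made it the 1 called gene of the 6; Pias1 turned to 0.031. With LV replicate 3 and untreated replicate 2 both left out, Socs2 turned to 0.68 and the lower genes numbered 136, against 73. A sex-biased score as covariate, chosen after seeing the data, gave 130 lower genes. The labels do not say that equal replicate numbers pair the libraries. The deviations of libraries with equal numbers correlated at 0.28, -0.47 and -0.34 for replicates 1, 2 and 3. LV replicate 3 and untreated replicate 2, which stood apart, correlated at 0.61, so these values cannot settle pairing. The replicate block gave 145 higher and 11 lower genes, against 315 and 73. It gave 7 called genes on the pathway lists, against 19, and did not call any of the 6.

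With single libraries left out, higher genes numbered 119 to 313, lower genes 10 to 116, and called pathway genes 4 to 22 higher and 0 to 1 lower. The log2 fold changes ran from -0.61 to 0.39 for Socs2, -0.095 to 0.15 for Pias1, -0.040 to 0.20 for Ptpn6 and -0.035 to 0.16 for Ptpn11, and 0 of the 6 were called. The pseudocount of 0.1, no filter, a mean value of at least 5, quantile normalization and no intensity trend left each of the 6 with its direction and uncalled. The causes of these changes were not tested.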
